A study of Arabidopsis thaliana with 8 samples.

Results

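The greening regulators are 8 transcription factor genes that switch on chloroplast development and the response to light in Arabidopsis thaliana. They were taken by name and locus identifier as GLK1 (AT2G20570), GLK2 (AT5G44190), GNC (AT5G56860), CGA1 (AT4G26150), HY5 (AT5G11260), HYH (AT3G17609), BBX21 (AT1G75540) and BBX22 (AT1G78600). All 8 were measured, among 27826 loci in all. Transcripts of rosette leaves were measured on 8 Affymetrix arrays, 4 from a mutant labelled as having a depleted NAA50 steady-state level, whose ecotype field reads animaa50, and 4 from wild type Col-0. NAA50 adds acetyl groups to the N-terminus of proteins. All plants had grown on soil in short days for 7 weeks, and leaves were taken and frozen 2 h into the light period. The labels used here do not describe how the depletion was made. Nor do they state separate plants for each array, and p-values therefore reflect only the spread between these 8 arrays.

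In a greening leaf, light stops the COP1 and SPA ubiquitin ligases from degrading HY5, a bZIP factor that then activates light-response genes. HYH is its close homologue, and the B-box proteins BBX21 and BBX22 act with HY5 or promote its expression. GLK1 and GLK2, of the GARP family, activate nuclear genes of chlorophyll synthesis and light harvesting. GNC and CGA1 are GATA factors that promote chlorophyll accumulation and respond to nitrogen, light and cytokinin. HY5 and BBX22 are controlled strongly at the protein level, which arrays do not measure.

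Expression values are on the log2 scale, after background correction and normalization of the arrays to a common distribution, so a rise or fall of all transcripts together cannot be seen. All arrays had a median of 2.73, and signal over background was not shown for loci near or below it. Each difference is the mean of the arrays labelled NAA50-depleted less the wild type mean, and carries the standard error from a limma fit to all loci. The p-values were adjusted by the Benjamini-Hochberg method, at a threshold of 0.05. At this threshold 1934 loci (6.95%) were higher and 2108 (7.58%) lower, 14.5% in all. Counts at an unadjusted p under 0.05 are given below for some lists. That share over all loci is not given, but it is at least 14.5%, so those counts are not to be set against 5%. Cyclic loess normalization gave 2267 higher and 1559 lower, a share of higher calls of 59.3% in place of 47.8%. NAA50 (AT5G11340) was at 10.43, 10.52, 10.24 and 10.33 on the arrays labelled NAA50-depleted, against 4.71, 4.54, 4.23 and 4.75 in wild type. Its transcript thus went against a label of depletion, if transcript is meant, so every direction below is that of the arrays as labelled. Among marker genes, 0 of 5 mesophyll genes were higher and 1 lower, and the mean of that list was 10.71 to 10.82 on the arrays labelled NAA50-depleted and 10.93 to 11.06 in wild type. Without the adjustment, 0 of the mesophyll genes were higher and 2 lower at a p under 0.05 in limma. RBCS1A, of this list, read 13.33 on all arrays but wild type replicate 2 (13.27). That is near the top of the range, where a change may not show. CA1 and RCA also read high, at group means of 10.8 to 11.5.

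Of the 8 regulators, GLK1, GLK2 and GNC fell, CGA1 and BBX22 rose, and HY5, HYH and BBX21 did not pass the threshold. Thus 3 of 8 were lower, against 7.58% of all loci, and 2 of 8 were higher, against 6.95%. The 8 genes were chosen with earlier results of these data known, so these shares are a description only. Where only the 9980 loci averaging above 4 are counted, 15.6% were lower and 13.0% higher. The median difference of the 8 genes was -0.07, beside -0.03 over all loci. Values of the groups did not overlap for the 5 genes that passed, a state found at 18.8% of all loci, and overlapped for the other 3.

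**Figure D1:**
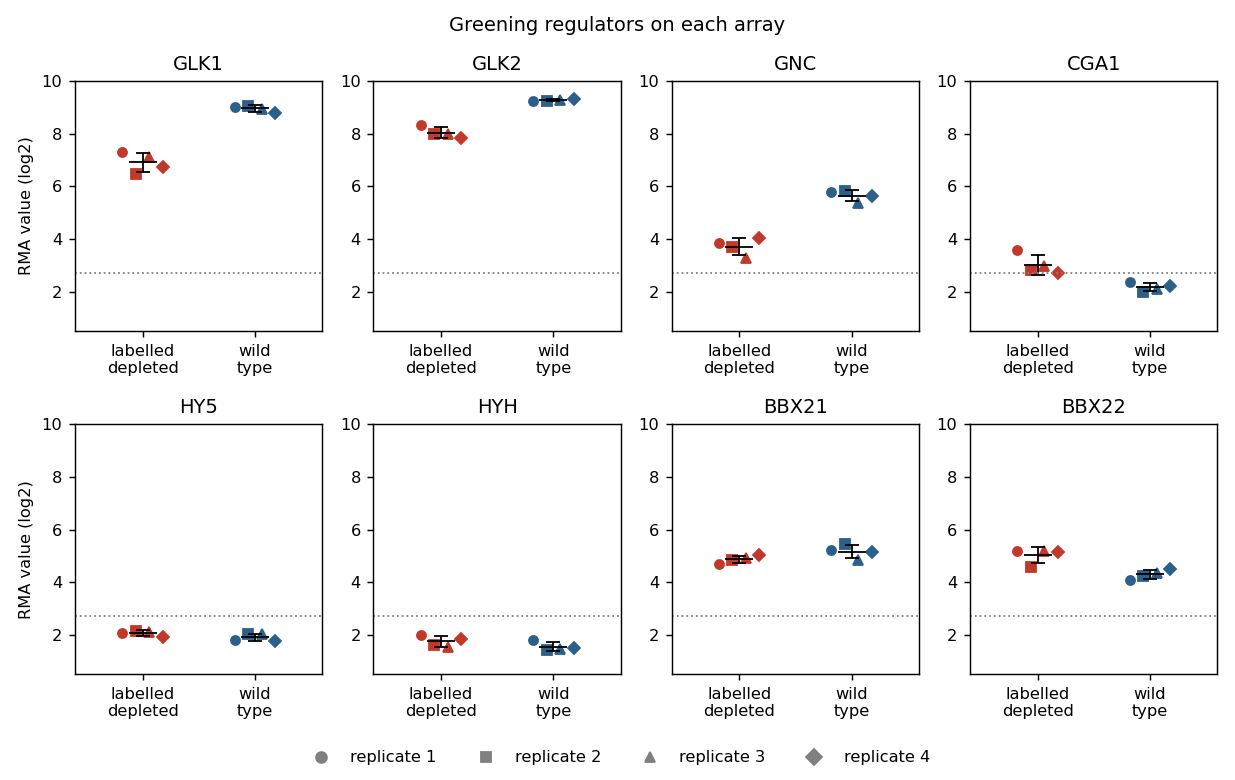
RMA expression values (log2, vertical axis) of the 8 regulators on each array, with the arrays labelled NAA50-depleted in red and wild type in blue; marker shapes give the replicate number, black bars the mean and SD of 4 arrays, and the dotted line the array median of 2.73. GLK1, GLK2 and GNC lie lower on every array labelled NAA50-depleted, CGA1 and BBX22 lie higher, and HY5, HYH and BBX21 overlap.

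GLK1 and GLK2, the paired activators of chloroplast genes, both fell. GLK1 read 7.31, 6.48, 7.11 and 6.74 on the arrays labelled NAA50-depleted, against 9.03, 9.06, 8.95 and 8.80 in wild type. The highest of the arrays labelled NAA50-depleted thus stayed below the lowest wild type array. GLK1 averaged 6.91 ± 0.37 on the arrays labelled NAA50-depleted and 8.96 ± 0.12 in wild type (SD, n = 4 arrays each). The difference of -2.05 ± 0.17 on the log2 scale (SE) was 4.14-fold lower, with an adjusted p of 2.24e-05 in limma.

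GLK2 read 8.32, 7.98, 8.01 and 7.83 on the arrays labelled NAA50-depleted, against 9.23, 9.26, 9.27 and 9.32 in wild type. The wild type arrays lay within a narrow band, with an SD of 0.04, while the SD was 0.21 on the arrays labelled NAA50-depleted. GLK2 differed by -1.23 ± 0.12 (SE, n = 4 arrays each), or 2.35-fold lower, with an adjusted p of 7e-05 in limma.

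The GATA factors GNC and CGA1, which are close relatives, changed in opposite directions. GNC read 3.84, 3.68, 3.28 and 4.02 on the arrays labelled NAA50-depleted, against 5.79, 5.81, 5.36 and 5.64 in wild type. The gap between the groups was wider than the range within either group. The difference was -1.94 ± 0.17 (SE, n = 4 arrays each), or 3.85-fold lower, with an adjusted p of 2.86e-05 in limma. CGA1 read 3.57, 2.81, 2.97 and 2.70 on the arrays labelled NAA50-depleted, against 2.35, 2.00, 2.11 and 2.21 in wild type. Every wild type value was under 2.73, the array median, and so was labelled NAA50-depleted replicate 4, with replicates 2 and 3 only just above it. The size of its rise is therefore less certain than the direction, and signal over background was not shown for most of its values. CGA1 rose by 0.85 ± 0.18, or 1.80-fold (95% interval 1.37 to 2.37), with an adjusted p of 0.00865 in limma. Without labelled NAA50-depleted replicate 1, which was the highest, the rise was 0.66 and still passed.

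HY5 and HYH, the bZIP factors of the light response, did not pass the threshold. HY5 read 2.09, 2.14, 2.12 and 1.93 on the arrays labelled NAA50-depleted, against 1.82, 2.03, 2.03 and 1.79 in wild type. All 8 values lay below the array median, where signal over background was not shown. The difference was 0.15 ± 0.11 (SE, n = 4 arrays each), with a 95% interval of -0.10 to 0.40 and an adjusted p of 0.471 in limma. HYH read 2.014, 1.624, 1.535 and 1.857 on the arrays labelled NAA50-depleted, against 1.821, 1.419, 1.483 and 1.503 in wild type. These values likewise lay below the median and the groups overlapped. HYH differed by 0.20 ± 0.14, with a 95% interval of -0.11 to 0.51 and an adjusted p of 0.438 in limma. At these low values the intervals describe the measured signal only.

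HY5 is a near neighbour of NAA50 on chromosome 5, with 9 annotated loci between them, of which 7 were measured. Their differences ran from -0.43 to 0.32, and 0 passed the threshold in limma in either direction, while 3 had an unadjusted p under 0.05. At least 14.5% of all loci had such a p, so the 3 are not read as an effect near NAA50.

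The B-box genes BBX21 and BBX22, which encode zinc finger proteins that act with HY5, also differed from each other. BBX21, an activator of HY5 transcription, read 4.69, 4.86, 4.91 and 5.02 on the arrays labelled NAA50-depleted, against 5.21, 5.44, 4.83 and 5.15 in wild type. Wild type replicate 3 was the lowest wild type array and lay within the other group. The difference was -0.29 ± 0.14 (SE, n = 4 arrays each), with a 95% interval of -0.61 to 0.03 and an adjusted p of 0.241 in limma. BBX22 read 5.203, 4.583, 5.171 and 5.141 on the arrays labelled NAA50-depleted, against 4.104, 4.238, 4.363 and 4.497 in wild type. Labelled NAA50-depleted replicate 2 stood below the other 3 of its group and only just above the highest wild type array. BBX22 rose by 0.72 ± 0.16, or 1.65-fold (95% interval 1.297 to 2.103), with an adjusted p of 0.00984 in limma.

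**Figure D2:**
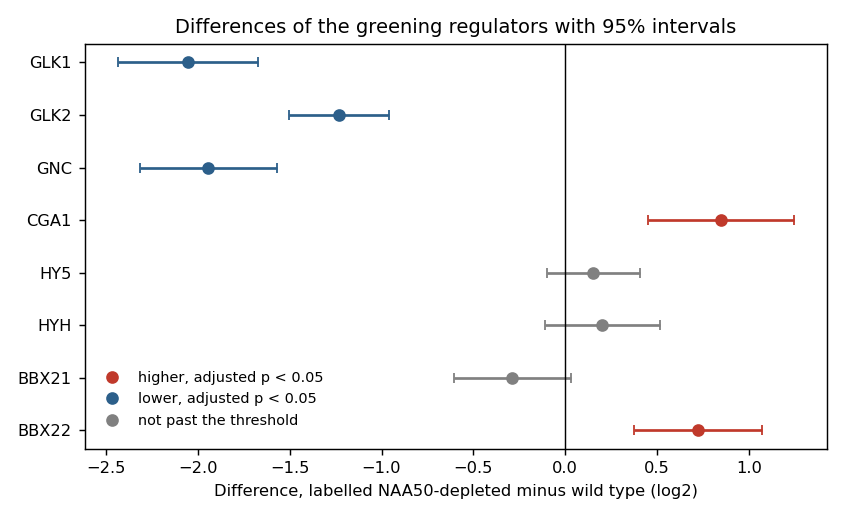
Difference of each regulator, arrays labelled NAA50-depleted minus wild type (log2, horizontal axis), with 95% intervals from the limma fit to 4 arrays each. Red and blue points passed the threshold upward and downward, and the intervals of HY5, HYH and BBX21, in grey, include 0.

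No single array held the most extreme value of every gene. Among the arrays labelled NAA50-depleted, GLK1 was lowest in replicate 2, GLK2 in replicate 4 and GNC in replicate 3, while CGA1 and BBX22 were both highest in replicate 1. The 5 calls held in each of the 8 fits that left out 1 array. Over those fits GLK1 ranged from -2.18 to -1.91, GLK2 from -1.33 to -1.17 and GNC from -2.05 to -1.80. CGA1 ranged from 0.66 to 0.95 and BBX22 from 0.66 to 0.87.

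Whether the members of a related pair changed by unequal amounts was tested on the log2 ratio of the pair within each array, with an exact two-sided permutation test over the 8 arrays and adjustment over 4 pairs. The smallest p this design allows is 0.0286. The level of such a ratio depends on the probes and has no meaning by itself, so only its shift between groups is compared. The shift is one of measured signal, and whether the probes of both genes respond alike was not tested. The ratio of GLK1 to GLK2 was -1.12 ± 0.26 on the arrays labelled NAA50-depleted and -0.31 ± 0.15 in wild type (SD, n = 4 arrays each). The signal of GLK1 thus fell further than that of GLK2, by 0.82 ± 0.15 (SE), with an exact permutation p of 0.0286 and an adjusted p of 0.0381. The ratio of GNC to CGA1 was 0.69 ± 0.50 on the arrays labelled NAA50-depleted and 3.48 ± 0.23 in wild type. It shifted by -2.79 ± 0.28, at an adjusted exact permutation p of 0.0381. The size is less certain because all wild type values of CGA1, and that of labelled NAA50-depleted replicate 4, lay below the array median. The groups did not overlap for GNC or CGA1, which moved oppositely, so the unadjusted p was bound to be the smallest possible. That p therefore adds nothing to the results of the single genes. The ratio of BBX21 to BBX22 shifted by -1.01 ± 0.24, at the same adjusted exact permutation p of 0.0381. For HY5 and HYH the shift was -0.05 ± 0.20 with an exact permutation p of 0.83, although both lay below the array median.

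**Figure D3:**
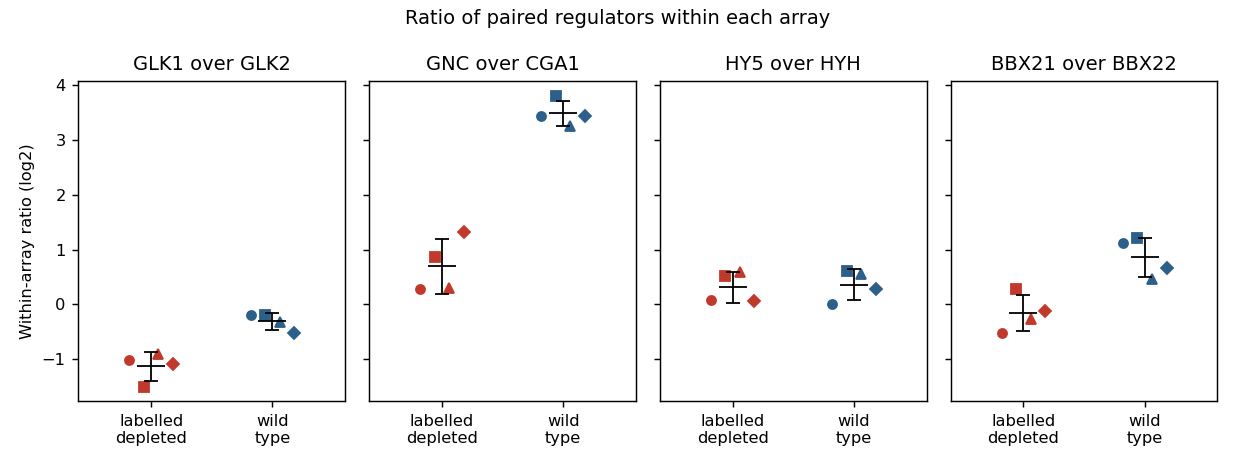
Log2 ratio of the members of 4 related pairs within each array (vertical axis), arrays labelled NAA50-depleted in red and wild type in blue, with marker shapes for replicates 1 to 4 as circle, square, triangle and diamond, and black bars for mean and SD. The groups are apart for GLK1 over GLK2, GNC over CGA1 and BBX21 over BBX22 and overlap for HY5 over HYH.

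The genes that act before or after these regulators were described by 10 lists with 91 distinct genes, of which 5 rose (5.49%), 28 fell (30.8%) and 58 did not pass the threshold. Over all loci 6.95% rose and 7.58% fell, so the share that rose was near that of all loci. The lists were chosen with earlier results of these data known, so the larger share that fell is a description only. Above a mean of 4 the shares were 13.0% and 15.6%. The number that rose was 6 with cyclic loess and with a robust variance trend. Without labelled NAA50-depleted replicate 2 the number that fell was 18. Over the same arrays the mean of the 8 epidermis and cuticle markers was 6.78 to 7.23 on the arrays labelled NAA50-depleted and 7.54 to 7.72 in wild type, with 4 of 8 lower. For the 6 guard cell markers it was 3.52 to 3.75 on the arrays labelled NAA50-depleted and 3.79 to 4.17 in wild type, with 2 of 6 lower. Of the vasculature, root, and meristem, flower and seed markers, 0 of 14 passed the threshold in limma in either direction, while 2 had an unadjusted p under 0.05. The part of these cell types in the results was not tested, and fewer cells of a type and less RNA per cell cannot be told apart in whole leaves.

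Genes known as GLK targets in chlorophyll synthesis fell in part. Of 8, 5 fell and 0 rose, 0 also at an unadjusted p under 0.05 in limma, and the median was -0.51. Of all loci 7.58% fell, or 15.6% above a mean of 4. HEMA1, the glutamyl-tRNA reductase that starts the pathway, read 6.70, 5.46, 6.60 and 7.26 on the arrays labelled NAA50-depleted, against 9.27, 9.15, 8.57 and 8.77 in wild type. HEMA1 was 5.41-fold lower, a difference of -2.44 ± 0.32 (SE, n = 4 arrays each, adjusted p = 0.000395 in limma). CHLH, a subunit of magnesium chelatase, differed by -0.98 ± 0.15, and PORC, a protochlorophyllide reductase, by -0.74 ± 0.11. CAO, which makes chlorophyll b, and GUN4, an activator of magnesium chelatase, differed by -0.51 ± 0.13 and -0.50 ± 0.15. CHLM and CHL27, enzymes that act between magnesium chelatase and protochlorophyllide reductase, and PORB, another protochlorophyllide reductase, lay between -0.05 and -0.02 and did not pass. The call of CAO was lost on leaving out wild type replicate 1 or labelled NAA50-depleted replicate 2 or 3 (-0.49 to -0.44), and that of GUN4 on leaving out any array but labelled NAA50-depleted replicate 4 (-0.55 to -0.38). The count of genes that fell was 3 in the 3 fits that lost CAO, and with cyclic loess.

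The antenna genes, whose proteins bind chlorophyll in the light-harvesting complexes and which GLK factors also activate, fell in part. Of 18, 5 fell and 0 rose, with 7 lower and 0 higher at an unadjusted p under 0.05 in limma, and the median was -0.20. Beside them, 7.58% of all loci fell, or 15.6% above a mean of 4. LHCA4, counted among those that did not pass, read 12.92 on all 8 arrays, near the top of the range, where a change may not show. Group means of LHCA2, LHCB1.4, LHCB2.2, LHCB3 and LHCB5, which did not pass either, were also high, at 11.4 to 12.6. Whether so high a signal hid a change in them was not tested. LHCB2.3 differed by -0.80 ± 0.14, LHCA1 by -0.72 ± 0.20, LHCB4.3 by -0.52 ± 0.14 and LHCB4.1 by -0.51 ± 0.14 (SE, n = 4 arrays each). The groups overlapped for LHCA1, and its values of 2.55 to 3.36 on the arrays labelled NAA50-depleted lay near the array median. The call of LHCA1 was lost in the fits that left out wild type replicate 3 or 4 or labelled NAA50-depleted replicate 1, 2 or 3 (-0.70 to -0.62). Those of LHCB4.3 and LHCB4.1 were lost with wild type replicate 1 or 2 or labelled NAA50-depleted replicate 2 or 3 left out. In addition LHCB4.3 lost its call with labelled NAA50-depleted replicate 4 left out (-0.53 to -0.41 in all) and LHCB4.1 with wild type replicate 4 left out (-0.52 to -0.38 in all). The number that fell was 1 without labelled NAA50-depleted replicate 2, 2 with cyclic loess or without labelled NAA50-depleted replicate 3, and 3 if wild type replicate 1, 2 or 4 was left out. The list median was -0.13 without labelled NAA50-depleted replicate 2 and -0.08 with cyclic loess. Whether the probes tell the near-identical LHCB1 copies apart was not examined.

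Of 14 genes known as HY5 targets, 3 fell and 1 rose, with 5 lower and 1 higher at an unadjusted p under 0.05 in limma. Over all loci 7.58% fell and 6.95% rose, or 15.6% and 13.0% above a mean of 4. The count that rose was thus near the share of all loci. For FLS1, MYB12, ELIP2, FHY1, FHL, RUP1 and RUP2 all values lay below the array median, where signal over background was not shown. PAP1, the MYB activator of anthocyanin synthesis, read 4.01, 3.80, 4.08 and 2.88 on the arrays labelled NAA50-depleted, against 6.10, 5.26, 5.67 and 5.57 in wild type. CHS, the chalcone synthase that opens flavonoid synthesis, read 5.74, 5.71, 4.95 and 5.57 on the arrays labelled NAA50-depleted, against 8.25, 7.39, 7.41 and 6.76 in wild type. Both groups were apart for each gene, with 3.89-fold lower values for PAP1 and 3.88-fold lower values for CHS. The chalcone isomerase CHI differed by -0.91 ± 0.20 (SE, n = 4 arrays each). RUP1, a repressor of the UV-B receptor, rose by 0.50 ± 0.14 at values below the array median, and it did not pass when any wild type array or labelled NAA50-depleted replicate 2 or 4 was left out (0.41 to 0.53). The early light-induced genes ELIP1 and ELIP2 differed by -0.28 ± 0.16 and 0.08 ± 0.13 and did not pass. ELIP1 too lay below the array median, except on wild type replicate 4 (2.749). The list median, which rests in part on these dim genes, was -0.25, but -0.13 with wild type replicate 4 left out and -0.16 with cyclic loess.

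Genes of the COP1 and SPA complex, which marks HY5 for degradation, were among those that fell. COP1, the ubiquitin ligase, read 5.31, 5.32, 5.17 and 5.26 on the arrays labelled NAA50-depleted, against 5.94, 6.12, 6.21 and 6.15 in wild type. COP1 differed by -0.84 ± 0.11 (SE, n = 4 arrays each), its partner SPA1 by -0.88 ± 0.11 and SPA3 by -0.77 ± 0.16. SPA2 and SPA4 differed by -0.47 ± 0.17 and -0.41 ± 0.17 and did not pass. DET1, DDB1A, COP10 and CUL4, also of ubiquitin ligase complexes that repress the light response, lay between -0.09 and 0.09 and did not pass. In all 3 of 9 fell and 0 rose, with 5 lower and 0 higher at an unadjusted p under 0.05 in limma, and the median was -0.41. Among all loci 7.58% fell, or 15.6% above a mean of 4.

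Of the 10 photoreceptors, 4 fell and 1 rose, beside 7.58% and 6.95% of all loci (15.6% and 13.0% above a mean of 4). PHYB, the main red light receptor of green leaves, read 4.46, 4.66, 4.25 and 4.37 on the arrays labelled NAA50-depleted, against 5.95, 5.90, 5.85 and 5.84 in wild type. PHYB was 2.73-fold lower, a difference of -1.45 ± 0.12 (SE, n = 4 arrays each, adjusted p = 1.82e-05 in limma). PHYA, the far-red light receptor, rose by 0.73 ± 0.18, with values of 5.27 to 5.82 on the arrays labelled NAA50-depleted and 4.40 to 5.20 in wild type. The blue light receptor PHOT2 differed by -0.67 ± 0.11, PHOT1 by -0.44 ± 0.13 and the UV-B receptor UVR8 by -0.35 ± 0.11. The calls of PHOT1 and UVR8 were lost with cyclic loess, leaving 2 genes that fell. UVR8 lost its call when any 1 array was left out (-0.39 to -0.31). PHOT1 lost it without wild type replicate 2, 3 or 4 or labelled NAA50-depleted replicate 1, 2 or 3 (-0.46 to -0.40), and in these fits too 2 genes fell. The number that rose was 2 without labelled NAA50-depleted replicate 2, with cyclic loess and with a robust variance trend, and the list median was -0.20, or -0.11 after cyclic loess.

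Among 13 other B-box genes of structural groups IV and V, 5 fell and 1 rose, beside 7.58% and 6.95% of all loci. BBX30, a small B-box protein, read 1.22, 1.5, 1.35 and 1.09 on the arrays labelled NAA50-depleted, against 3.89, 3.59, 3.79 and 2.87 in wild type. All values on the arrays labelled NAA50-depleted lay below the array median, so its difference of -2.24 ± 0.21 (SE, n = 4 arrays each) is less certain in size. BBX25, a repressor of the light response, differed by -1.34 ± 0.19, and BBX18 and BBX29 by -0.75 ± 0.17 and -0.75 ± 0.18. BBX29 lay below the array median on all arrays but wild type replicate 2 (2.805). Without that array its difference was -0.55 and still passed. BBX20, an activator that acts with HY5, rose by 0.58 ± 0.14, with all values below the array median. Some B-box genes that did not pass also lay below the array median on all arrays. The list median was -0.21, and -0.10 after cyclic loess.

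Of 6 other GATA factors, 0 passed the threshold in limma in either direction, with 2 lower and 0 higher at an unadjusted p under 0.05. Their differences ran from -0.40 to 0.20, and some of them lay below the array median on all arrays. Of 4 type-B response regulators, the factors that carry the cytokinin signal to genes such as CGA1, ARR1 rose and the other 3 did not pass. ARR1 read 5.39, 5.34, 5.10 and 5.23 on the arrays labelled NAA50-depleted, against 4.02, 3.74, 4.15 and 4.09 in wild type, a difference of 1.27 ± 0.13 (SE, n = 4 arrays each, adjusted p = 7e-05 in limma). The list median was 0.19, and 0.11 without labelled NAA50-depleted replicate 1.

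Among 6 genes of signalling from plastid to nucleus, whose state is known to set GLK expression, 3 fell and 1 rose. For this list and the next, the shares of all loci were 7.58% lower and 6.95% higher, or 15.6% and 13.0% above a mean of 4. GUN1, a plastid protein that integrates these signals, differed by -0.54 ± 0.12, and FC1, a ferrochelatase, rose by 0.75 ± 0.18 (SE, n = 4 arrays each), from wild type values below the array median. CHLH and GUN4, given above, belong to this list too. Of 6 sigma factors, which guide the plastid RNA polymerase, 2 fell and 0 rose, 0 also at an unadjusted p under 0.05 in limma. SIG1 read 6.96, 6.08, 6.76 and 6.87 on the arrays labelled NAA50-depleted, against 8.59, 8.59, 8.21 and 8.33 in wild type, a difference of -1.77 ± 0.19. SIG6 differed by -0.47 ± 0.13, and cyclic loess ended its call, as did leaving out wild type replicate 1, 2 or 4, or labelled NAA50-depleted replicate 1, 2 or 3 (-0.47 to -0.39). The sigma factor median was -0.24, but -0.14 with wild type replicate 4 left out and -0.13 with cyclic loess, and 1 gene fell in each fit that lost SIG6.

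**Figure D4:**
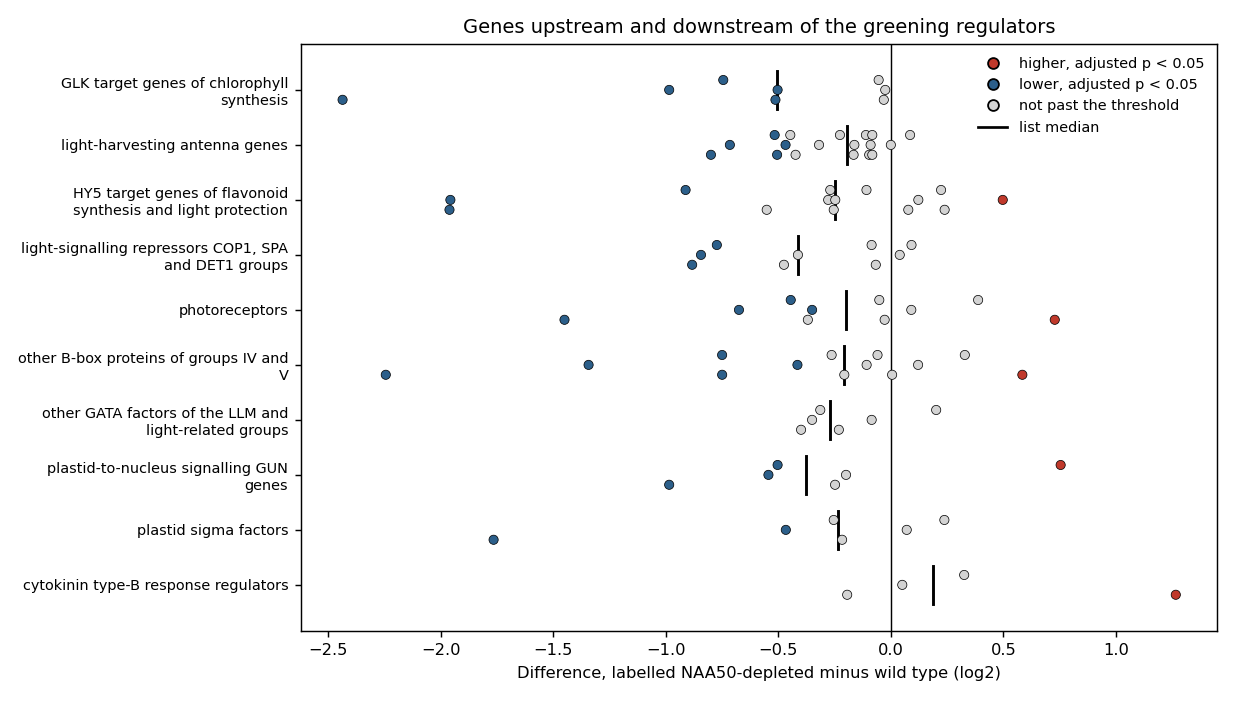
Difference of each gene of 10 lists, arrays labelled NAA50-depleted minus wild type (log2, horizontal axis), with a list in each row. Red points rose and blue points fell past the threshold, grey points did not pass and black bars give list medians, which lie below 0 for all lists but the type-B response regulators.

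Loci whose values followed each regulator most closely over the 8 arrays were sought among loci with a mean above 4, by Pearson's r, given as a description with no test. The 2 groups were apart for the 5 regulators that passed the threshold, so their r includes the difference between groups, while the groups overlapped for HY5, HYH and BBX21. For GLK1 the closest were AT5G20700 (r = 0.991) and AT1G72640 (r = 0.989), and for GLK2 they were LTO1, a thylakoid thiol oxidoreductase, (r = 0.995) and AT5G55070 (r = 0.994). For GNC they were PLR1, a pyridoxal reductase, (r = 0.998) and AT1G26650 (r = 0.992). AT5G20700 had nearly the size of change of GLK1, at -1.75 ± 0.15, whereas AT1G72640 differed by -0.23 ± 0.10 and did not pass the threshold. For CGA1 they were AT5G65687 (r = 0.983) and the glutathione transferase GSTZ1 (r = 0.962), and for BBX22 AT3G11850 (r = 0.984) and DFL2 (r = 0.984). For HY5 they were GASA1 (r = 0.972) and AT2G26800 (r = 0.953), for HYH ARA6 (r = 0.972) and FIP37 (r = 0.934), and for BBX21 AT1G78690 (r = 0.967) and AME3 (r = 0.958). For HY5, HYH and BBX21, neither the regulator nor the loci nearest to it passed the threshold. The 2 loci nearest to CGA1 did not pass either.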

How the data were processed

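The authors deposited 1 log2 expression value per locus and array, which the submitters' processing notes credit to RMA. No RMA version, chip definition or genome build is stated in these notes or labels, and the log base was taken as 2 from the range of 0.69 to 13.7. The sorted values were identical on all 8 arrays (largest gap 0), so the table had been quantile-normalized. Groups and replicate numbers came from the sample titles. Precision is limited by having 4 arrays each.

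All 27826 loci were modelled on group alone with limma 3.58.1 in R 4.3.3 (lmFit and eBayes, no filter), with two-sided p-values adjusted over all loci. The same fit was run on simulated data as a check. Pairs were compared with the exact permutation test. Locus identifiers were matched to the TAIR10.1 gene table for symbols and neighbours (27241 matched, 585 did not). No coordinates or sequences are printed.

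The regulators and gene lists were chosen with earlier results of these data known. Genes named beside them were NAA50, up to 4 increases and 4 decreases past the threshold per list, and the 2 loci most alike to each regulator. LHCA4, CHLM, CHL27, PORB, ELIP1, ELIP2, FLS1, MYB12, FHY1, FHL, RUP2, SPA2, SPA4, DET1, DDB1A, COP10 and CUL4 were added after their values were seen. Alternatives were the replicate block, median centring, cyclic loess, a filter on dim loci (4 or more arrays over the 25th percentile), a variance trend with robust fitting, array weights, each array left out and an adjusted p of 0.01.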

Additional observations from a re-analysis of the deposited data

Results flagged for a closer look

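BBX22 on labelled NAA50-depleted replicate 2 read 4.58, while the other 3 arrays of that group lay between 5.14 and 5.20. The gap to the nearest of them was 0.899 of the whole range of the group, above the 95% critical value of Dixon's ratio for 4 samples. Without that array the rise of BBX22 was 0.87, with an adjusted p of 0.00202 in limma. This was 1 of 88 groups of 4 examined, of which chance marks about 1 in 20.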

How the results depend on the processing

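The calls of GLK1, GLK2, GNC, CGA1 and BBX22, and the lack of a call for HY5, HYH and BBX21, were the same under every alternative run; the filter on dim loci dropped HYH. Members called stayed at 2 higher and 3 lower. At an adjusted p of 0.01, all loci gave 1228 higher and 1010 lower, and the listed genes gave 1 higher and 16 lower. With 1 array left out, all loci gave 1635 to 1797 higher and 1592 to 1882 lower, and the listed genes gave 4 to 5 higher and 18 to 27 lower. The pair contrasts then ranged from -0.89 to -0.69 for GLK1 over GLK2, -3.00 to -2.65 for GNC over CGA1, -1.16 to -0.89 for BBX21 over BBX22 and -0.17 to 0.036 for HY5 over HYH. With 3 arrays against 4 the exact permutation test cannot go below 0.0571, so no pair could pass. Same-numbered arrays of the 2 groups did not deviate together (r from -0.05 to 0.04). No pairing by number was thus seen, though so few arrays cannot exclude one. The replicate block gave 1781 loci higher and 1764 lower, 2 and 3 regulators, and 5 and 25 listed genes. Of the 4 arrays labelled NAA50-depleted, 1 correlated best with its own number. The calls of PHOT1 and UVR8 were lost under the block, at adjusted p of 0.0654 and 0.110 in limma, and those of CAO, GUN4, LHCB4.1 and LHCB4.3, beside PHOT1, UVR8 and SIG6, after cyclic loess. LHCB4.3 also lost its call with the variance trend and robust fitting, at an adjusted p of 0.0503 in limma. Each of these calls and that of LHCA1 was also lost on leaving out single arrays, 3 to 8 of the 8.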
